A study of Drosophila melanogaster and Drosophila simulans and Drosophila sechellia with 48 samples.

Results

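The larval-peak autosomal genes are genes whose transcripts were most abundant, relative to a common reference, in third-instar male larvae. They were chosen by a rule on values measured here. From the genes with values on all arrays of Drosophila melanogaster, D. simulans and D. sechellia, genes off the X chromosome were kept whose larval value, averaged over the group means of the 3 species, exceeded that of each other stage by at least 0.5 on the log2 scale. Genes whose symbols mark ribosomal, proteasome, respiratory chain, actin, translation initiation and cuticle protein families were left out, together with TpnC73F, Mlc1, Mp20 and CG9297. The rule gave 67 genes of the 1646 autosomal genes and 1903 genes in all with values in the pure species. Another 16 genes with such a peak lie on the X and 12 were left out by symbol. The hybrids did not enter the rule, so their values are a separate measurement, and 65 of the 67 genes have values on all hybrid arrays. CG5506 and Blimp-1 do not.

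The samples were whole males in pools of 25 flies from strain 14021-0231.00 of D. melanogaster, strain 14021-0251.2 of D. simulans and the Cousin Island strain of D. sechellia, and from the sterile F1 sons of D. simulans females and D. sechellia males. All were reared on cornmeal-molasses food and the labels name no transgene or treatment. They were taken as larvae at 96 h after larval emergence, early pupae, late pupae at 72 h after puparium formation and adults at 1.5 h after eclosion. The labels put the early pupae at 4 h after puparium formation, and the study's methods give an earlier hour. Each species and stage was 1 pool on 3 arrays, which are technical replicates, while each hybrid stage had 3 separately extracted pools on 1 array each.

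Each of the 48 arrays compared a sample with the same mixed-stage D. melanogaster male reference, and values are given as log2 of sample over reference. They therefore rank samples for 1 gene and say nothing of one gene's level against another's. The arrays carry D. melanogaster cDNA, so divergence of sequence can bias the values of the other species. In whole bodies, fewer cells of a type and less RNA per cell cannot be told apart. In 6 pure-species groups 2 of the 3 arrays were near-identical, and hybrid adult replicates 1 and 2 were treated as such. Correlations of their duplicate-spot differences were 0.941 to 0.972 in the pure species and lower, at 0.648, in the hybrid adults. In the 41 other pairs they were -0.046 to 0.053. The near-identical pairs were averaged and counted once, which leaves 2 hybrid adult samples, given below with the merged pair first. Hybrid larval pool 1 stood apart from the other 2 pools, with a Pearson correlation of 0.765 and 0.78 over all genes against 0.924 between pools 2 and 3. It gave the lowest of the 3 larval values for 48 of the 65 larval-peak genes and for 40.5% of all genes. Array 2 of the D. simulans adults also differed from the merged arrays 1 and 3, with correlations of 0.823 and 0.822.

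Third-instar larvae of Drosophila feed until they have stored the energy and building material for metamorphosis. Growing larvae are known to run sugar through glycolysis at a high rate even with oxygen at hand, to store glycogen and fat in the fat body, and to digest protein in the midgut with serine proteases. At puparium formation feeding has ended, larval tissues begin to break down under the hormone ecdysone, and the animal lives on its stores.

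In the species, which chose the genes, the larval value of the median gene was 0.90, against -0.22 in adults, -0.22 in late pupae and -0.29 in early pupae. The larval excess, that is the larval value minus that of the next highest stage, had a median of 0.67 in the mean of the species and was 1 or more in 11 genes. Its size differed among the species. The median larval excess was 0.51 in D. melanogaster, 0.64 in D. simulans and 0.85 in D. sechellia, and 34, 44 and 52 of the 67 genes had a larval excess of 0.5 or more with that species taken alone, as had 5.89%, 5.36% and 13.98% of all genes. In 58 genes the larva was the highest stage in all 3 species, in 8 genes in only 2 of them, and in 1 gene in only 1. That gene was esc, a Polycomb group gene, with an excess of -0.13 in D. melanogaster, -0.10 in D. simulans and 1.08 in D. sechellia. The stage next to the larva was the adult for 29 genes, the late pupa for 21 and the early pupa for 17. These values describe the choice and were not tested.

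**Figure D1:**
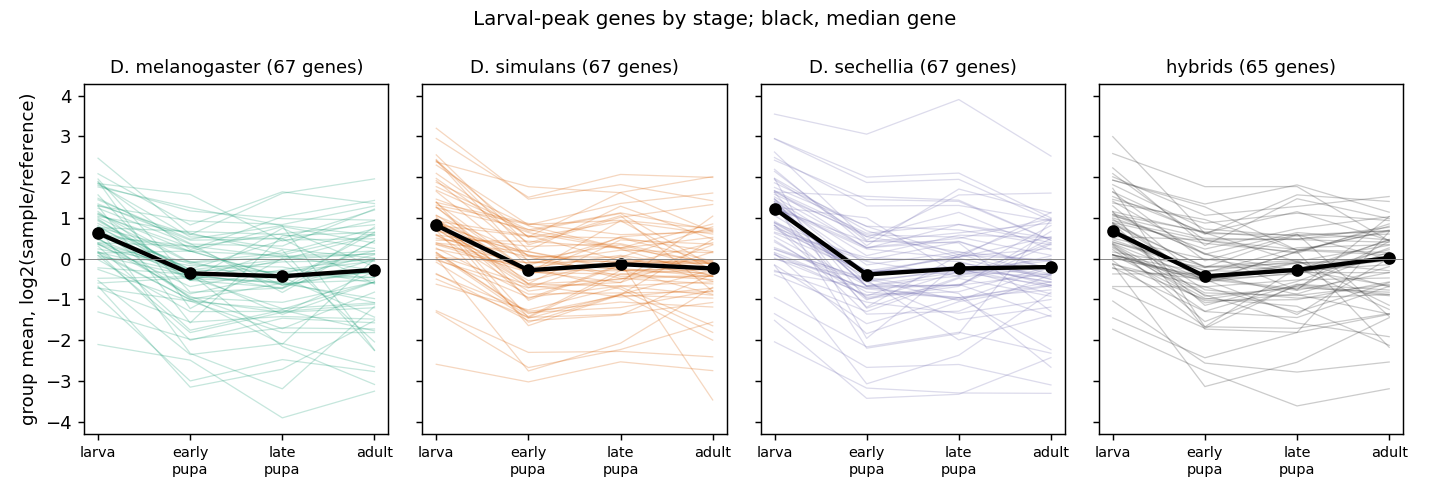
Group means of each larval-peak gene (thin lines) and of the median gene (black) at the 4 stages, as log2 of sample over reference, in the 3 species that chose the genes (67 genes) and the hybrids (65 genes). The median gene is highest in larvae in every panel, and in the hybrids it goes from 0.67 in larvae to -0.43, -0.27 and 0.02 at the later stages.

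The hybrids, which took no part in the choice, had the same larval maximum in most of these genes. The hybrid larval mean was above every later hybrid mean in 53 of 65 genes (81.5%, against 21.2% of the 1698 genes with hybrid values), and by 0.5 or more in 30 (46.2%, against 4.36%). The median larval excess was 0.48 for the 65 genes and -0.36 for all genes. A gene was called where its limma p, adjusted by the Benjamini-Hochberg method, was below 0.05 and its values changed 1.5-fold or more. By this criterion 37 of the 65 genes (56.9%) were higher in hybrid larvae than in hybrid early pupae, where 10.6% of all genes tested were. Against late pupae 41 genes (63.1%) were higher, with 17.4% of all genes, and against adults 30 (46.2%), with 13.8% of all genes. None of the 65 was called lower in larvae in any of the 3 comparisons, where 9.25%, 15.9% and 13.0% of all genes were. The lowest of the 65 changes was -0.01 against early pupae, -0.18 against late pupae and -0.29 against adults.

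**Figure D2:**
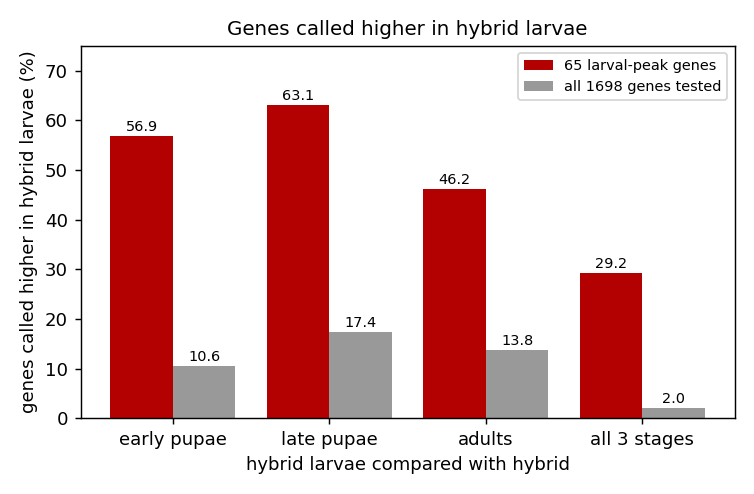
Share of genes called higher in hybrid larvae than in hybrid early pupae, late pupae, adults and all 3 (limma, percent of genes), for the 65 larval-peak genes (red) and all 1698 genes tested (grey). The larval-peak genes were called in 56.9%, 63.1%, 46.2% and 29.2% of cases.

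Larvae were above all 3 later stages in 19 of the 65 genes (29.2%) and in 34 of the 1698 genes (2.0%), so that 19 of these 34 were larval-peak genes. Another 19 genes were called against 2 of the stages, 13 against 1 and 14 against none. The count of 19 rose to 30 without hybrid larval pool 1 (4.24% of all genes) and fell to 10 without pool 2 (1.06%) and to 14 without pool 3 (1.59%), with 29 without every array numbered 1 (3.59%), 10 without those numbered 2 (0.766%) and 3 without those numbered 3 (0.294%), where 1 adult sample is left. Without the arrays numbered 2 or 3 the counts fell to 20 and 14 against early pupae and to 26 and 22 against late pupae, and without those numbered 3 to 6 against adults. The shares of all genes called fell too, to 4.59% and 3.30%, to 8.60% and 6.89%, and to 2.65%. In 24 genes (36.9%, against 4.3% of all genes) every hybrid larval pool was above every later pool. Across the 65 genes the excess in the hybrids and in the mean of the species had a Pearson r of 0.66 and a Spearman rho of 0.57. Those are correlations across genes measured against 1 reference, and genes are not independent replicates.

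**Figure D3:**
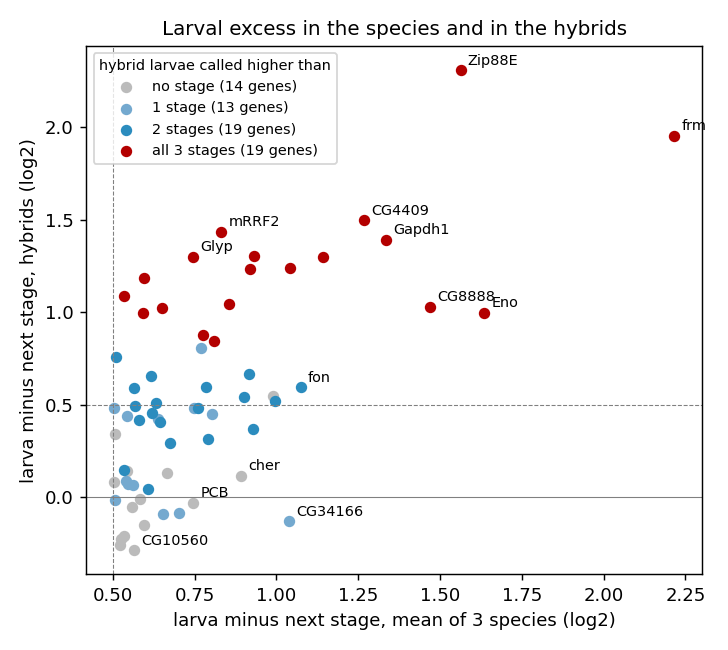
Larval excess over the next highest stage in the mean of the 3 species (x axis) and in the hybrids (y axis), both log2, for 65 genes. Colours give how many later stages hybrid larvae were called above, and dashed lines mark 0.5. The 19 genes called against all 3 stages have hybrid excesses from 0.85 (CG31287) to 2.31 (Zip88E).

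By count, sugar metabolism and the citric acid cycle gave the most larval-peak genes of the 15 lists of genes of known role. Their share was not the largest, since the digestive enzymes gave 2 of 3 measured genes. Of 18 measured genes of sugar metabolism and the citric acid cycle, 5 were larval-peak genes. These were Eno (enolase) and Gapdh1 (glyceraldehyde-3-phosphate dehydrogenase), which act in the lower part of glycolysis, Pfk (phosphofructokinase), which commits sugar to it, Glyp (glycogen phosphorylase), which frees sugar from glycogen, and PCB (pyruvate carboxylase), which turns pyruvate into oxaloacetate. Eno had 0.17, 0.32 and 0.43 on the 3 larval arrays of D. melanogaster, 0.70, 1.39 and 0.99 on those of D. simulans and 1.39, 1.65 and 1.39 on those of D. sechellia. Its group means at the later stages were -1.75, -1.26 and -1.77 in D. melanogaster, -1.44, -0.37 and -0.51 in D. simulans and -1.21, -0.46 and -0.20 in D. sechellia. The D. simulans adult mean joins -1.18 in the merged arrays 1 and 3 with 0.16 on array 2, both below its larval arrays. Larvae were thus the highest group in each species, with a mean excess of 1.63, the second largest of the set. The hybrid values of Eno were -0.04, 0.60 and 0.43 in the 3 larval pools, -1.66, -1.44 and -1.52 in the early pupal pools, -1.10, -0.37 and -0.53 in the late pupal pools and -0.73 and -1.08 in adults. Every larval pool was above every later pool. The differences of larvae from the later stages were 1.87 ± 0.24 (adjusted p = 2.82e-05) against early pupae, 1.00 ± 0.24 (adjusted p = 0.00454) against late pupae and 1.24 ± 0.27 (adjusted p = 0.00291) against adults, each ± SE, with n = 3 pools except for 2 adult samples, as in all hybrid tests given here. Larvae thus had 2.00-fold the ratio of late pupae, the next highest stage.

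Gapdh1 in the hybrids had values of 0.37, 0.95 and 0.71 in the 3 larval pools, -0.93, -0.80 and -1.02 in the early pupal pools, -0.96, -0.42 and -0.76 in the late pupal pools and -0.59 and -1.06 in adults. Its 3 larval pools were all above 0 and the later samples all below it. The differences were 1.60 ± 0.23 (adjusted p = 8.57e-05) against early pupae, 1.39 ± 0.23 (adjusted p = 0.000184) against late pupae and 1.50 ± 0.26 (adjusted p = 0.000477) against adults. In the species its larval excess was 1.62 in D. melanogaster, 0.96 in D. simulans and 1.17 in D. sechellia. A second gene, Gapdh2, encodes a similar enzyme, and cDNA of 1 may bind transcripts of the other. Glyp had hybrid values of -0.52, 0.18 and -0.09 in the 3 larval pools, -3.16, -2.98 and -3.27 in the early pupal pools, -2.40, -2.63 and -2.59 in the late pupal pools and -1.32 and -1.58 in adults. It was lowest in early pupae and climbed part of the way back by the adult, where the 2 samples still lay below every larval pool. The differences were 2.99 ± 0.22 (adjusted p = 2.12e-08) against early pupae, 2.39 ± 0.22 (adjusted p = 4.63e-07) against late pupae and 1.30 ± 0.25 (adjusted p = 0.000981) against adults. In D. simulans adults Glyp had -1.49 in the merged arrays 1 and 3 and 0.08 on array 2, which lay within the larval values of -0.01, -0.01 and 0.11.

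Pfk and PCB kept less of the pattern in the hybrids. Pfk had -0.15, 0.89 and 0.31 in the 3 larval pools, -0.94, -0.79 and -1.51 in the early pupal pools, -0.71, -1.26 and -0.63 in the late pupal pools and -0.24 and -0.15 in adults, and its larvae were higher than pupae by 1.43 ± 0.28 (adjusted p = 0.00118) in early and 1.21 ± 0.28 (adjusted p = 0.0028) in late pupae but differed from adults by 0.54 ± 0.31 (adjusted p = 0.203). PCB had an excess of 0.75 in the mean of the species and -0.03 in the hybrids, where its larval pools spread over 0.30, 1.52 and 1.19 and overlapped the adults at 1.23 and 0.83. No comparison of PCB passed the test, with 0.77 ± 0.27 (adjusted p = 0.0591) against early pupae. Among all 15 genes of the list with hybrid values, 10 were called higher in larvae than in early pupae and none lower, 5 higher and 2 lower against late pupae, and 3 higher and 1 lower against adults. The median of the list was 0.86, 0.27 and -0.03 in these comparisons, against -0.02, 0.04 and -0.03 for all genes. The list was written with earlier results of these data known. Pgk (phosphoglycerate kinase), which acts between Gapdh1 and Eno in glycolysis, had larval differences of -0.06, -0.53 and -0.54 in the hybrids, none of which passed the test. Ald1 (aldolase) had an excess of 0.48 in the mean of the species and fell just short of the rule.

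**Figure D4:**
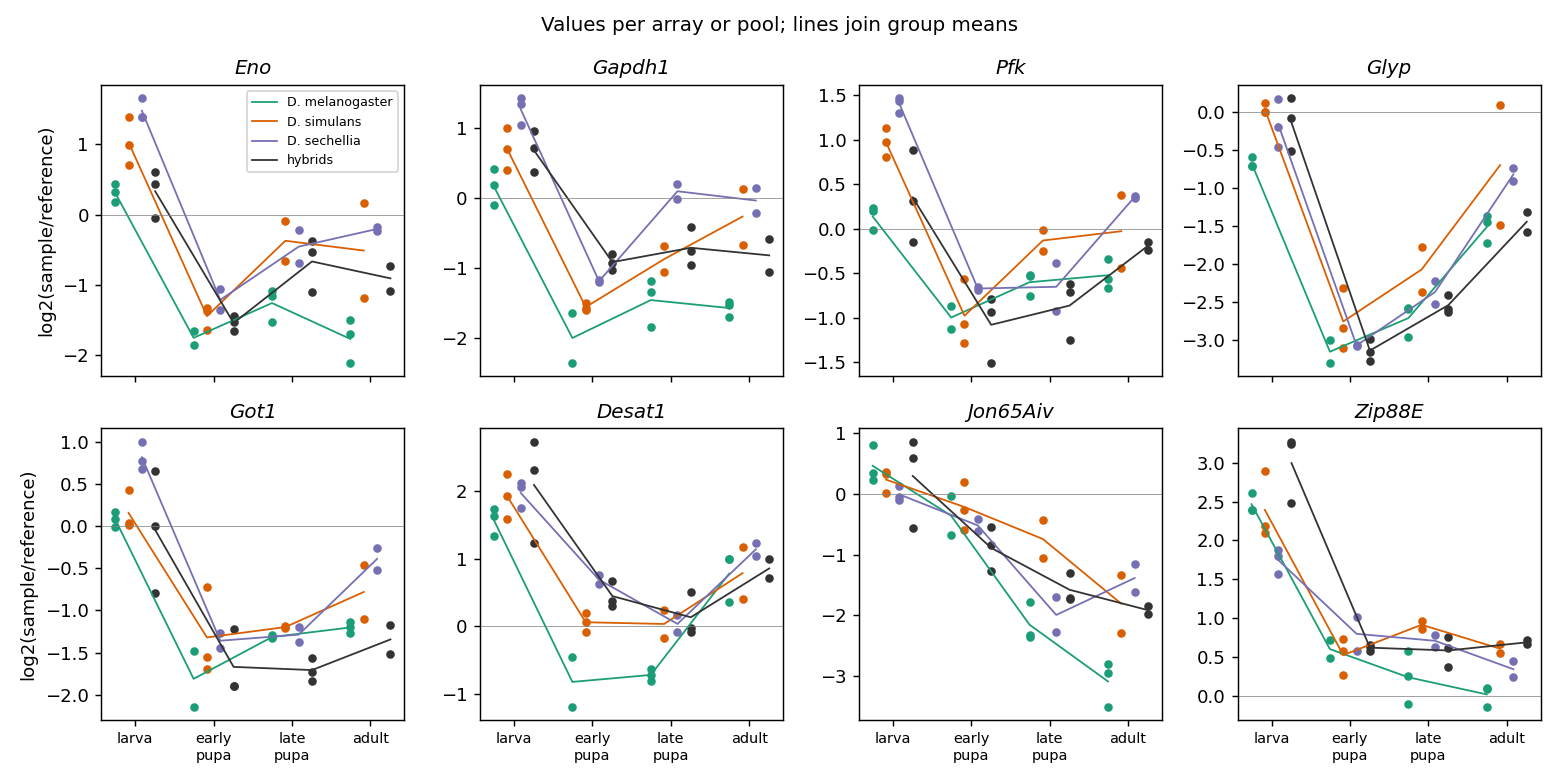
Values of 8 larval-peak genes, as log2 of sample over reference (y axes, scaled per gene), at the 4 stages. Each point is 1 array, or the mean of a near-identical pair, in the species and 1 pool, or the mean of that pair, in the hybrids, and lines join group means. The larval mean is the highest of each line. In every line Gapdh1, Pfk, Glyp, Got1 and Desat1 are higher in adults than in early pupae.

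Both aspartate aminotransferases were in the set. Got1 is the cytosolic and Got2 the mitochondrial enzyme, and together they serve amino acid metabolism and the shuttle that carries reducing power into mitochondria. Got1 had -0.01, 0.08 and 0.17 on the 3 larval arrays of D. melanogaster, 0.04, 0.42 and 0.01 on those of D. simulans and 0.68, 1.00 and 0.77 on those of D. sechellia, and an excess of 1.14 in the mean of the species. In the hybrids it had -0.79, 0.65 and 0.00 in the 3 larval pools, -1.89, -1.22 and -1.90 in the early pupal pools, -1.73, -1.83 and -1.56 in the late pupal pools and -1.52 and -1.17 in adults. The differences were 1.62 ± 0.30 (adjusted p = 0.000885) against early pupae, 1.66 ± 0.30 (adjusted p = 0.000434) against late pupae and 1.30 ± 0.34 (adjusted p = 0.00873) against adults. Larval pool 1, at -0.79, was the nearest to the later samples, and no later sample reached it. Got2 had -0.12, 1.27 and 1.07 in the 3 larval pools, -0.57, -0.36 and -0.48 in the early pupal pools, -0.99, -0.50 and -0.75 in the late pupal pools and 0.51 and 0.34 in adults. Its adults lay within the range of the larvae. It was higher in larvae than in early pupae by 1.21 ± 0.29 (adjusted p = 0.00667) and late pupae by 1.48 ± 0.29 (adjusted p = 0.000825), while the difference from adults was 0.32 ± 0.33 (adjusted p = 0.496). Of the 7 measured genes of amino acid and nucleotide metabolism, 4 were called higher and 1 lower against early pupae, 4 higher against late pupae and 2 higher against adults.

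Of the 20 measured genes of the fat body and of lipid metabolism, 3 were larval-peak genes. Desat1, the desaturase that makes unsaturated fatty acids, had 1.63, 1.34 and 1.73 on the 3 larval arrays of D. melanogaster, 1.59, 1.92 and 2.24 on those of D. simulans and 2.11, 2.06 and 1.75 on those of D. sechellia. In the hybrids it had 1.22, 2.73 and 2.31 in the 3 larval pools, 0.37, 0.67 and 0.30 in the early pupal pools, 0.50, -0.08 and -0.03 in the late pupal pools and 0.71 and 0.99 in adults. Every larval pool was above every later sample, and pool 1 was again the lowest of the larvae. The differences were 1.64 ± 0.31 (adjusted p = 0.000926) against early pupae, 1.96 ± 0.31 (adjusted p = 0.000116) against late pupae and 1.23 ± 0.34 (adjusted p = 0.0129) against adults. For yip2, a mitochondrial thiolase of fatty acid oxidation, the hybrid values were 0.43, 1.75 and 2.05 in the 3 larval pools, -0.39, 0.55 and 0.17 in the early pupal pools, -0.66, 0.04 and -0.26 in the late pupal pools and -0.30 and 0.01 in adults. Pool 1 overlapped 1 early pupal pool, and the larval mean was above the later means by 1.30 ± 0.35 (adjusted p = 0.0129) against early pupae, 1.70 ± 0.35 (adjusted p = 0.00117) against late pupae and 1.56 ± 0.39 (adjusted p = 0.00689) against adults. AcCoAS, which makes acetyl-CoA from acetate, had 0.68, 1.27 and 1.29 in the 3 larval pools, 0.22, -0.04 and 0.22 in the early pupal pools, -0.59, -0.84 and -0.88 in the late pupal pools and 1.10 and 0.97 in adults. The adults lay within the larval range. Its larvae differed from adults by 0.05 ± 0.25 (adjusted p = 0.907) and were above early pupae by 0.95 ± 0.22 (adjusted p = 0.00521) and late pupae by 1.85 ± 0.22 (adjusted p = 8.18e-06). Against late pupae 10 of the 19 genes of this list with hybrid values were called higher and 2 lower in hybrid larvae. Against early pupae these counts were 4 and 2, and against adults 5 and 3.

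The digestive proteases Jon65Aiv and Jon99Fii, of the Jonah family of midgut serine proteases, were 2 of the 3 digestive enzymes measured. Jon65Aiv had a lower mean at each later stage of the hybrids, with -0.57, 0.59 and 0.86 in the 3 larval pools, -1.28, -0.85 and -0.54 in the early pupal pools, -1.30, -1.72 and -1.71 in the late pupal pools and -1.98 and -1.85 in adults. Pool 1 of the larvae overlapped 1 early pupal pool. The differences were 1.18 ± 0.31 (adjusted p = 0.0108) against early pupae, 1.87 ± 0.31 (adjusted p = 0.000173) against late pupae and 2.21 ± 0.35 (adjusted p = 0.000184) against adults. Jon99Fii had -2.81, -1.20 and -1.18 in the 3 larval pools, -2.94, -2.57 and -2.75 in the early pupal pools, -3.30, -3.87 and -3.67 in the late pupal pools and -3.30 and -3.08 in adults, with larval pool 1 within the early pupal range, and differences of 1.02 ± 0.34 (adjusted p = 0.0392) against early pupae, 1.88 ± 0.34 (adjusted p = 0.00036) against late pupae and 1.46 ± 0.38 (adjusted p = 0.0081) against adults. In the mean of the species their larval excesses were 0.59 and 0.65. In D. simulans alone the larval mean of Jon99Fii was not the highest. Its larval arrays there were at -2.81, -2.78 and -2.18, and its late pupal values at -2.51 and -2.55. The third, Jon66Cii, was higher in hybrid larvae than in late pupae and adults, by 1.08 and 1.31, with 0.27 against early pupae. Jonah genes are close copies of each other, so a cDNA element may bind several of them.

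Zip88E, a zinc transporter of the ZIP family, had the largest larval excess in the hybrids. It had 3.24, 2.48 and 3.27 in the 3 larval pools, 0.66, 0.62 and 0.57 in the early pupal pools, 0.36, 0.76 and 0.62 in the late pupal pools and 0.71 and 0.66 in adults. All later samples lay in a narrow band below the 3 larval pools. The differences were 2.38 ± 0.23 (adjusted p = 9.52e-07) against early pupae, 2.41 ± 0.23 (adjusted p = 7.59e-07) against late pupae and 2.31 ± 0.26 (adjusted p = 6.02e-06) against adults, which is 4.96-fold against the adults, the next highest stage. In the species its excess was 1.87 in D. melanogaster, 1.48 in D. simulans and 0.95 in D. sechellia. MFS18, named for the major facilitator family of transporters, had a hybrid excess of 0.48 and was higher in larvae than in late pupae and adults, by 0.71 ± 0.23 (adjusted p = 0.0259) and 0.79 ± 0.26 (adjusted p = 0.0328). These were 2 of 32 measured transport genes.

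The gene frm had the largest excess in the species, 2.22 in their mean. Its larval values were 1.55, 1.30 and 2.85 in D. melanogaster, 2.02, 3.32 and 1.89 in D. simulans and 2.04, 1.79 and 2.08 in D. sechellia. In the hybrids it had 1.75, 1.62 and 1.81 in the 3 larval pools, -2.21, -1.53 and -1.28 in the early pupal pools, -0.42, -0.21 and -0.05 in the late pupal pools and -1.30 and -1.19 in adults. The larval pools lay close together and far from the rest, and early pupae were the lowest. The differences were 3.40 ± 0.24 (adjusted p = 1.09e-08) against early pupae, 1.95 ± 0.24 (adjusted p = 1.07e-05) against late pupae and 2.97 ± 0.27 (adjusted p = 3.84e-07) against adults. In the hybrids CG8888 had 1.35, 1.59 and 1.97 in the 3 larval pools, -0.03, 0.07 and -0.19 in the early pupal pools, 0.85, 0.40 and 0.56 in the late pupal pools and -1.49 and -1.34 in adults, with larvae highest and adults lowest, and differences of 1.69 ± 0.22 (adjusted p = 3.09e-05) against early pupae, 1.03 ± 0.22 (adjusted p = 0.00177) against late pupae and 3.05 ± 0.25 (adjusted p = 1.40e-07) against adults. CG10527 had a hybrid larval mean of 0.27 and means of -0.97, -1.17 and -2.12 at the later stages, and its larvae were above early pupae by 1.24 ± 0.22 (adjusted p = 0.000564). CG4409 had larval pools at -1.59, -0.80 and -0.72 and later samples between -2.87 and -2.19, and its smallest difference was 1.50 ± 0.28 (adjusted p = 0.000898), against adults. The mitochondrial ribosome recycling factor mRRF2, which frees ribosomes after translation in mitochondria, had larval pools at -0.14, 1.28 and 0.87 and a smallest difference of 1.44 ± 0.29 (adjusted p = 0.00158), against early pupae. CG6638 had larval pools at 1.35, 2.27 and 1.84 and a smallest difference of 1.09 ± 0.29 (adjusted p = 0.0115), against early pupae. Tina-1, the last of the 12 genes with the largest excess in the species (0.99), had hybrid larval pools at 0.20, 1.76 and 1.52, was higher in larvae than in late pupae and adults by 1.24 ± 0.32 (adjusted p = 0.00627) and 1.85 ± 0.35 (adjusted p = 0.000944), and differed from early pupae by 0.52 ± 0.32 (adjusted p = 0.293).

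The members included 3 genes of detoxification and redox control, of 14 measured. In the hybrids GstD1, a glutathione S-transferase, had 0.23, 1.18 and 1.11 in the 3 larval pools, -0.11, -0.16 and -0.32 in the early pupal pools, 0.17, -0.03 and -0.25 in the late pupal pools and -0.89 and -1.40 in adults, and was above all 3 later stages by 1.04 ± 0.26 (adjusted p = 0.00795) against early pupae, 0.88 ± 0.26 (adjusted p = 0.0148) against late pupae and 1.98 ± 0.29 (adjusted p = 8.89e-05) against adults. In D. simulans alone its larvae were below late pupae, with an excess of -0.12, against 0.86 in D. melanogaster and 1.59 in D. sechellia. Cyp4e2, a cytochrome P450, was higher in hybrid larvae than in early pupae by 1.08 ± 0.26 (adjusted p = 0.00596) and late pupae by 1.23 ± 0.26 (adjusted p = 0.00141), with 0.46 ± 0.29 (adjusted p = 0.248) against adults. Among the species, its larval arrays were above every later value in D. melanogaster only. In D. simulans they were -0.38, -0.39 and -0.32, against -0.78 and 0.03 in adults. In D. sechellia they were -0.38, -0.43 and -0.37, against -0.32 and -0.65 in late pupae. The thioredoxin gene Trx2 was higher only against late pupae, by 0.72 ± 0.24 (adjusted p = 0.0271). The haemolymph clotting protein fon, 1 of 4 measured immune and haemolymph genes, had 0.55, 1.83 and 1.52 in the 3 larval pools, -0.68, -0.16 and -0.84 in the early pupal pools, 0.78, 0.14 and -0.37 in the late pupal pools and 0.72 and 0.69 in adults, and was higher in larvae than in early pupae by 1.86 ± 0.33 (adjusted p = 0.00051) and late pupae by 1.12 ± 0.33 (adjusted p = 0.0138), with 0.59 ± 0.36 (adjusted p = 0.238) against adults. Both fon and Trx2 had adult samples inside the larval range. The remaining genes above all 3 later stages in the hybrids, named after their values were seen, were CG6178, CG31287 and Neurochondrin, with excesses of 1.04, 0.85 and 1.00. With all array elements of a gene averaged, the smallest difference of CG31287 was -0.02, so its elements did not all show this excess.

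Zasp66, a protein of the muscle Z-disc, showed another course. Its hybrid values were 1.03, 0.91 and 1.54 in the 3 larval pools, -1.49, -1.79 and -1.90 in the early pupal pools, -1.72, -2.09 and -1.61 in the late pupal pools and 0.77 and 0.56 in adults. Larvae were above early pupae by 2.89 ± 0.23 (adjusted p = 6.02e-08) and late pupae by 2.97 ± 0.23 (adjusted p = 5.67e-08), while the adults lay near the larvae, at a difference of 0.50 ± 0.26 (adjusted p = 0.162). It was the only larval-peak gene among the 7 muscle genes measured. Another of these, TpnC73F, had an excess of 1.42 in the mean of the species, against 0.57 for Zasp66, and was left out by name. Mlc1 and Mp20, also left out, were not among the 7. Among the later stages, smaller shares of the larval-peak genes than of all genes were called between early and late pupae. This was not so between late pupae and adults. Between early and late pupae of the hybrids 5 of the 65 genes were called higher in early pupae and 9 in late pupae (7.69% and 13.8%, against 20.3% and 18.0% of all genes). Between late pupae and adults 5 were higher in each (7.69%, against 5.71% higher in late pupae and 7.3% higher in adults). Those higher in late pupae were CG10527, CG34166, CG8888, GstD1 and frm, and those higher in adults AcCoAS, CG10283, Glyp, Got2 and Zasp66. Zasp66 had the largest gain, with a late pupal minus adult difference of -2.47 ± 0.26 (adjusted p = 3.19e-06), and CG34166 the largest loss, with 2.34 ± 0.36 (adjusted p = 0.000175).

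In 12 of the 65 genes the larva was not the highest hybrid stage. The 6 smallest excesses were those of CG10560 (-0.29), the mitochondrial transcription termination factor mTTF (-0.26), Mccc1 (-0.23), a subunit of the leucine-degrading enzyme methylcrotonoyl-CoA carboxylase, the Polycomb group genes esc (-0.21) and Asx (-0.15), and CG34166 (-0.13). In the mean of the species CG34166 had an excess of 1.04, among the 12 largest. In the hybrids its larval pools were 0.60, -0.59 and 0.11 and its late pupal pools 0.78, 0.16 and -0.42, which overlapped, and only the adults, at -1.87 and -2.48, were called lower than larvae, by 2.22 ± 0.36 (adjusted p = 0.000231). CG10560 had larval pools at -0.91, 0.78 and -0.22, a range of 1.69, and its differences from the later stages were smaller. For the test against the parents another measure was used, the larval value minus the mean of the 3 later stages. By it the hybrids were below the mean of both parents in 44 of the 65 genes (67.7%, against 49.1% of all genes). The parents took part in choosing genes with high larval values, so nothing is read from this count. The difference was called in none of the 65 genes, with 0.0589% of all genes called higher and 0.0% lower. At an unadjusted p under 0.05 it was 10 genes (15.4%, against 18.4% of all genes). This difference had over the 65 genes a median of -0.14 and a median SE of 0.34.

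At a single stage, no larval-peak gene was called in the same direction against both parents, which is the study's criterion of direction for misexpression. This held at all 4 stages, where 0.118% of all genes in larvae, 0.0% in early and late pupae and 2.18% in adults were called. The study used another test, over replicate spots, and called more genes misexpressed at each stage. Here each parent entered as 1 averaged sample per stage, so no absence of misexpression is read from these counts. At an unadjusted p under 0.05 against both parents it was 2 genes in larvae and 2 in adults (3.08% each, against 6.60% and 7.24% of all genes), and none in early or late pupae (2.06% and 0.412% of all genes). In larvae 49 of the 65 genes were lower in the hybrids than in the mean of the parents, with median differences of -0.19 from D. simulans and -0.36 from D. sechellia, against -0.08 and -0.06 for all genes. The parental larvae chose the genes and hybrid larval pool 1 was low in most of them, and the part of either in these medians was not tested. Against D. simulans adults none was called, with 0.412% of all genes called higher and 3.83% lower there. The only gene called against 1 parent was frm, which was lower in hybrid than in D. simulans early pupae, at a difference of -1.61 ± 0.34 (adjusted p = 0.0206), where 1.94% of all genes were called lower, with 0.28 ± 0.34 (adjusted p = 0.997) from D. sechellia. Its early pupal values were -0.20, -0.09 and 0.08 in D. simulans, -1.77 and -2.14 in D. sechellia and -2.21, -1.53 and -1.28 in the hybrids.

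Between the species, in 12 comparisons of the 3 pairs at the 4 stages, 1 larval-peak gene was called. Blimp-1, a transcriptional repressor induced by ecdysone that times steps of the prepupal and pupal periods, had 1.85, 1.96 and 1.70 on the 3 larval arrays of D. melanogaster, 3.31, 2.81 and 2.73 on those of D. simulans and 3.79, 3.51 and 3.35 on those of D. sechellia. In early pupae it had 0.56 and 0.51 in D. melanogaster, 1.77, 1.33 and 1.43 in D. simulans and 3.00 and 3.11 in D. sechellia, and in late pupae 0.65, 0.39 and 0.45 in D. melanogaster, 2.05 and 2.09 in D. simulans and 3.92 and 3.89 in D. sechellia. In adults D. melanogaster had 1.22, 1.19 and 1.18, D. simulans 2.00 and 1.99 and D. sechellia 2.47 and 2.57. D. sechellia was the highest and D. melanogaster the lowest at every stage, with no overlap. The difference of D. melanogaster from D. sechellia was -2.52 ± 0.43 (adjusted p = 0.0359) in early pupae, where 0.315% of all genes were called lower, and -3.41 ± 0.43 (adjusted p = 0.0118) in late pupae, where 0.0525% were. Each species is 1 pool here, and since Blimp-1 has no hybrid values its error comes from the prior alone, set by the other genes. The early pupal call was lost with arrays scaled to the same SD or without the arrays numbered 2 or 3, and the late pupal call without those numbered 3.

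In larvae none of the 67 genes was called between any 2 species, and of all 1903 genes tested there none was either. At an unadjusted p under 0.05 it was 8 genes (11.9%, against 7.57% of all genes) between D. melanogaster and D. simulans, 9 (13.4%, against 15.1%) between D. melanogaster and D. sechellia, and 1 (1.49%, against 2.68%) for D. sechellia against D. simulans. At the later stages these counts ran from 3 to 14 of the 67 genes, or 4.48% to 20.9%, against 5.89% to 15.1% of all genes. Without hybrid larval pool 1, which enters these tests only through the residual error, the members called at any stage were 5, 7 and 1 for D. melanogaster against D. simulans, D. melanogaster against D. sechellia and D. sechellia against D. simulans, in place of 0, 1 and 0. They are 7.46%, 10.4% and 1.49% of the 67, against 6.04%, 6.36% and 1.79% of all genes in that setting. The larval value minus the mean of the 3 later stages was compared between species too. It was called in no gene, member or other, in any pair, and the excess over the next highest stage was not tested between species. At an unadjusted p under 0.05 it was 3, 5 and 1 of the 67 genes in these pairs (4.48%, 7.46% and 1.49%, against 3.78%, 11.98% and 6.67% of all genes). The median SE of this measure's differences was 0.52. Genes with a wide spread among the species, named after the values were seen, were coro (coronin, an actin-binding protein), with an excess over the next highest stage of -0.65 in D. melanogaster, 1.22 in D. simulans and 0.48 in D. sechellia, and CG5506, with 1.94, 0.24 and 0.92. By the tested measure, D. melanogaster minus D. simulans was -1.72 ± 0.48 (adjusted p = 0.905) for coro and 2.16 ± 0.49 (adjusted p = 0.803) for CG5506.

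The genes came from the 4 major autosome arms. There were 20 on 2L, 20 on 3R, 14 on 2R and 13 on 3L, or 29.9%, 29.9%, 20.9% and 19.4% of them. Of the measured autosomal genes, 22.1%, 28.6%, 23.998% and 23.7% lie on these arms. None was on chromosome 4, where 1.58% of the measured autosomal genes lie. Only CG32100 with Sms and cal1 with cher were next to each other among the measured genes. By role 21 of the 67 fell in 1 of 15 gene lists, and 46 fell in none. Among measured genes of cuticle and extracellular matrix (17), the secretory pathway (21), the cell cycle (5), testis and spermatogenesis (16) and neural function (5) none was a member. Of these, 4, 2, 3, 0 and 1 lie on the X, where the rule admits none, and members are 4.07% of the autosomal genes. The ribosome biogenesis list had 1 of 7, Ns1 (nucleostemin), with an excess of 0.51, and the ecdysone list had 1 of 5, Blimp-1. Ns1, CG15406 and Klp59C, a kinesin that takes microtubules apart, were the members nearest the threshold, with excesses of 0.51, 0.51 and 0.50. CG17544, CG14109 and Srlp lay just outside it, at 0.495, 0.497 and 0.499.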

How the data were processed

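The deposited values are log2 ratios per spot. The authors scanned the arrays, removed spots that failed inspection, an intensity minimum or 2-fold over background, kept elements usable on all arrays of a species, and normalized each array by a joint spatial and intensity loess. All 48 columns were used. The 2 spots of an element were averaged, a gene was represented by its first element, and names came from the platform annotation (60 of the 67 genes) or the study's list (7). Of 27648 probes, 14966 had 1 gene symbol, 264 several and 12418 none listed. Array medians lay between -0.09 and 0.09.

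Near-identical arrays, recognised by correlated duplicate-spot differences, were averaged, which was decided after the arrays were seen. Arrays of a pure-species pool were then averaged to 1 sample, since they are technical replicates. One limma model (limma 3.58.1, R 4.3.3) over the resulting 23 samples in 16 groups had 7 residual degrees of freedom, all from hybrid pools, whose spread the tests assume for the species. P-values were adjusted by the Benjamini-Hochberg method over all genes tested. Data were simulated over 1698 genes and scored for hybrid larvae against hybrid early pupae. Of 50 genes each raised by 1 and by 2 on the log2 scale, 44 and 50 were recovered. Of 50 genes each lowered by 1 and by 2, 41 and 50 were, with 8 false calls among 1498 unchanged genes. The noise was independent with 1 spread per gene, so no simulated pool stood apart as hybrid larval pool 1 did. Recovery was not scored for comparisons with adults, with the parents or between species. The authors used SAM and Bonferroni-corrected tests over spots, of which the latter was one of the alternatives.

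The genes, the 15 lists, the alternatives and the naming rule were chosen with earlier results of these data known. Symbols of the lists were brought to current spelling later, and prefixes that caught genes of another role were narrowed. The rule names the genes with the 12 largest excesses in the species, the 12 largest and 6 smallest in the hybrids, genes called between species or against both parents, up to 4 genes per list and the 3 genes on each side of the threshold. The number of arrays limits the precision. No coordinates or sequences are given. Gene positions served only to assign chromosomes and to order the genes for the search of neighbours, and no sequence was used.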

Additional observations from a re-analysis of the deposited data

Results flagged for a closer look

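Blimp-1 was higher in larvae than in late pupae on every array of D. melanogaster and of D. simulans, while in D. sechellia every larval array was below the late pupal arrays, with a difference of -0.3575 between the means on the log2 scale. This opposite direction of the change was noticed over technical arrays of 1 pool per group, and the difference between species in this single transition was not tested. What was tested between species is another measure, the larval value minus the mean of the 3 later stages. It was not called for Blimp-1, at 0.71 ± 0.49 for D. melanogaster minus D. sechellia (SE, limma adjusted p = 0.627) and -0.71 ± 0.49 for D. sechellia minus D. simulans (adjusted p = 0.811).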

How the results depend on the processing

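The number of larval-peak genes called higher in hybrid larvae, 37, 41 and 30 against early pupae, late pupae and adults and 19 against all 3, stayed within 1.5 times under every scaling, element, prior, merging and test alternative that kept all arrays. Leaving out replicates gave 14 to 48, 22 to 46, 6 to 38 and 3 to 30 in these comparisons. The numbers of the hybrid pools do not pair the samples by the labels, and their 18 same-numbered pairs of deviations had correlations of -0.0543 to 0.454, of which 11 were over 0.1. A fit with the number as a replicate block gave 43, 41, 35 and 22, and 9 of 12 arrays correlated best with their own number, which is a hint from the data only. With every technical array as a replicate, 9 genes in larvae and 1 in adults were called against both parents (13.8% and 1.54%, against 10.6% and 9.07% of all genes), where the main counts were 0. That setting called 50, 51 and 42 genes at any stage between D. melanogaster and D. simulans, D. melanogaster and D. sechellia, and D. sechellia and D. simulans (74.6%, 76.1% and 62.7%, against 60.6%, 70.0% and 57.0% of all genes). In the larval value minus the mean of the later stages it called 10, 20 and 12 (14.9%, 29.9% and 17.9%, against 14.7%, 32.9% and 23.3%). The main counts were 0, 1 and 0 and 0, 0 and 0. It takes arrays of 1 pool as independent. Leaving out replicates gave 0 to 5, 0 to 7 and 0 to 2 genes between these species. Of the 19 genes above all 3 later stages, CG10527, Zip88E and frm passed in all 16 alternatives. CG31287 had -0.0207 as its smallest change with all its elements averaged, so its elements did not all show the larval excess. Why they differ was not tested. The early pupal difference of Blimp-1 between D. melanogaster and D. sechellia was lost with arrays scaled to the same SD and without replicate 2 or 3, and the late pupal one without replicate 3. The rule itself gave 60 genes with arrays centred on their medians (59 shared with the 67), 78 with arrays scaled (65 shared), 67 with all elements averaged (66 shared), 54 to 65 shared genes without a replicate, and, in alternatives added after the data were seen, 70 without merging (65 shared) and 87 with quantile normalization (64 shared). In all of these 46 of the 67 were found.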
